A study of Mus musculus with 4 samples.

Results

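The collagen genes of mouse small intestinal lamina propria were described from single-cell RNA-Seq of WT and A20ZF7 mice. A collagen gene was any gene whose symbol was Col, a number, the letter a and a number. This rule took 44 of the 31950 genes listed in both libraries and used no measured value. A20 (Tnfaip3) restrains NF-κB signaling, and A20ZF7 mice carry a knock-in that abrogates binding of M1-linked ubiquitin by zinc finger 7. Lamina propria cells of 2 mice per genotype were tagged per mouse, pooled and run with a 5′ kit, which gave 1 gene expression library of WT and 1 of A20ZF7. Both went through the same negative selection, which enriches T cells and ILCs by removing other cells, and no treatment was named. The mutation is in the germline, so every cell type carries it.

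Collagens are trimeric proteins that are secreted and assembled outside the cell. Collagens I, III and V build fibrils, collagen IV builds the sheet of basement membranes, collagen VI forms beaded filaments, and collagens XII, XIV and XVI sit on fibril surfaces. Collagens XV and XVIII, the multiplexins, link basement membranes to the surrounding matrix, and collagens XIII and XXIII span the plasma membrane. In the gut wall, fibroblasts make most interstitial collagen, and smooth muscle and endothelial cells lie on basement membranes.

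After filtering, 14753 WT and 43218 A20ZF7 barcodes were kept, with medians of 1059 and 853 UMIs (unique molecular identifiers, 1 per captured transcript). Cell classes were gated on marker genes that held no collagen. A barcode needed 3 marker UMIs from 2 genes of a class and 2/3 of its marker UMIs in that class. This gave 4984 WT and 10402 A20ZF7 fibroblast barcodes, 1394 and 721 of smooth muscle, 259 and 428 of endothelium, 13 and 14 of glia, and 10 and 7 of pericytes. Fibroblasts thus held 33.8% and 24.1% of barcodes after a selection meant to remove them, so the shares of barcodes do not give the makeup of the tissue. T or innate lymphocytes, the cells selected for, held 22.4% of WT and 33.1% of A20ZF7 barcodes and served as a class that should lack collagen RNA. The libraries shared 913 kept barcodes. Levels are given as CPM, UMIs of a gene per 1000000 UMIs of the class, with no division by length because each UMI is one 5′ end. Intervals are 95% and cover counting error only. With 1 library per genotype, genotype cannot be told apart from library, and no difference between genotypes or classes was tested. A count of called genes is a count past 2-fold among genes with at least 20 UMIs in the higher group, and is set beside the same percentage over all genes.

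Fibroblast barcodes held 80.0% of the 116751 collagen UMIs of WT and 72.7% of the 191161 of A20ZF7. Barcodes with markers of several classes held a further 12.8% and 21.3%, and smooth muscle held 4.61% and 0.98%. Summed over the 44 genes, the collagen level of fibroblasts was 14624 CPM in WT (14531 to 14718) and 11575 CPM in A20ZF7 (11514 to 11636). Smooth muscle reached 2827 and 2356 CPM, and endothelium 1541 and 1706 CPM. Glial barcodes gave 4693 and 4870 CPM from only 68 and 45 collagen UMIs, and pericytes 4381 and 2041 CPM from 40 and 12. The order from fibroblast to smooth muscle to endothelium was the same in both libraries, with intervals that did not meet. The glial intervals lay between fibroblasts and smooth muscle in both, and the pericyte interval overlapped smooth muscle in A20ZF7 (1055 to 3565 CPM).

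Lymphocyte barcodes carried 142 CPM of collagen in WT and 190 CPM in A20ZF7. Empty barcodes with 10 to 50 UMIs carried 1327 and 823 CPM. Fibroblast barcodes with at least 1 collagen UMI made up 99.9% in WT and 99.7% in A20ZF7, at median depths of 1119 and 994 UMIs. The same share was 10.8% and 12.5% of lymphocyte barcodes, at 925 and 878 UMIs, which shows the level that barcodes of another type reach in these droplets. Of the 44 genes, 27 reached 20 UMIs in the comparison of fibroblasts with lymphocytes in each library. Past 2-fold higher in fibroblasts were 26 of the 27 in WT, where 30.0% of all genes were, and 27 of 27 in A20ZF7, where 25.3% were. A gene with fewer than 20 lymphocyte UMIs entered these counts through fibroblasts alone. Among such genes were 6 of the 26 in WT, with 3 or fewer lymphocyte UMIs, while 0 of the 27 in A20ZF7 had so few. These 6 are not all of them, since Col4a2 and Col5a1 had 18 and 14 lymphocyte UMIs in WT. All short network collagens together, Col8a1 included, had 7 in WT and 15 in A20ZF7. The full number of such genes was not counted. The lower limit of the ratio passed 2 for 26 genes in each library, and did not for Col20a1 in A20ZF7. Lower limits were not taken over all genes, so this count has no background. Col3a1 was 129 times higher in WT fibroblasts than lymphocytes (106 to 158) and 86.6 times in A20ZF7 (79.2 to 94.8).

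**Figure D1:**
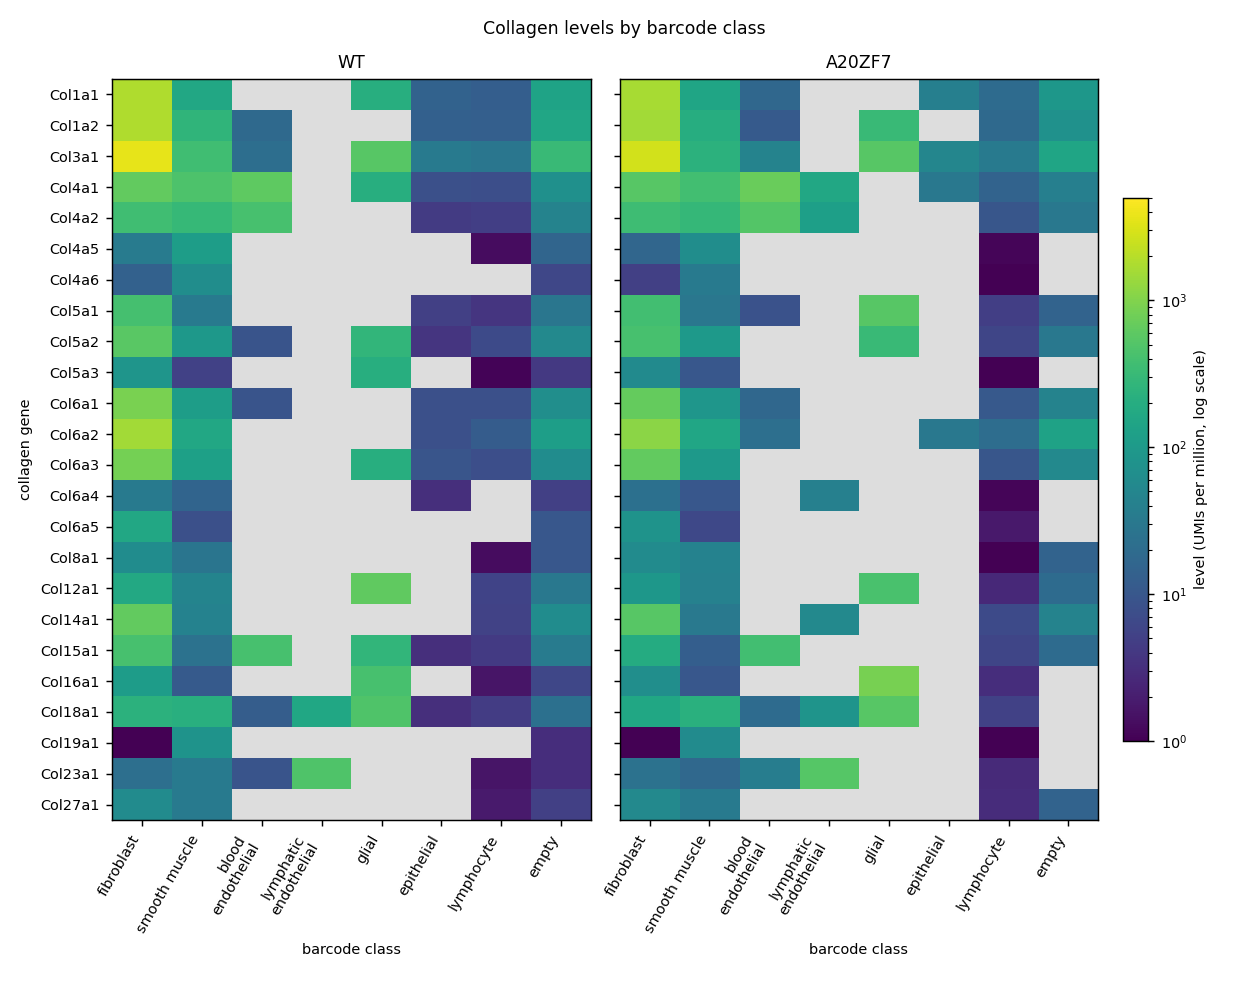
Heat map of the level (CPM, log colour scale) of 24 collagen genes in 8 barcode classes of the WT and A20ZF7 libraries, with grey for fewer than 3 UMIs. Col3a1 is the strongest entry in fibroblasts of both libraries (3603 and 2807 CPM), and Col4a1, Col4a2, Col15a1 and the lower Col23a1 are entries of both fibroblasts and endothelium.

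Fibril-forming collagens made up 57.4% of collagen UMIs in WT and 59.8% in A20ZF7 fibroblasts. Col3a1, the chain of collagen III, was the highest gene of the family at 3603 CPM in WT and 2807 in A20ZF7. The collagen I chains followed, with Col1a1 at 1841 and 1630 CPM and Col1a2 at 1817 and 1553 CPM. The collagen V chains, which start fibrils, were lower, with Col5a2 at 569 and 417 CPM, Col5a1 at 405 and 381, and Col5a3 at 83.8 and 58.1. Col27a1 was at 60.8 and 54.4 CPM. Fibroblast barcodes with a Col3a1 UMI made up 92.7% in WT and 86.9% in A20ZF7, against 2.75% and 2.95% of lymphocyte barcodes. When each barcode was thinned to 500 UMIs, which left out 572 A20ZF7 fibroblast barcodes, the fibroblast shares were 77.1% and 70.1%.

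The chains of collagen I join as 2 α1 and 1 α2, and their UMIs were near parity in fibroblasts. The ratio of Col1a2 to Col1a1 UMIs was 0.987 in WT fibroblasts (0.962 to 1.01) and 0.953 in A20ZF7 (0.934 to 0.972). In smooth muscle the same ratio was 1.61 in WT (1.39 to 1.86) and 1.35 in A20ZF7 (1.06 to 1.72), so Col1a2 outnumbered Col1a1 there in both libraries. This was not confined to smooth muscle. The small Bmp/F3 fibroblast subset, described below, had a ratio of 1.51 in WT (1.25 to 1.83) and 1.20 in A20ZF7 (0.912 to 1.57). Lymphocyte barcodes gave 1.02 (0.671 to 1.55) and 0.911 (0.771 to 1.08), which is near the fibroblast ratio. The RefSeq promoter tables (assembly GRCm38.p6) held a window for 35 of the 44 genes. Stretches ahead of the start of 2 leading fibril genes are shown, 1 with each of the motifs searched. Capitals mark a CCAAT in Col1a2, 109 bases before its start (chr6:4505468-4505617, plus strand), and a TATAAA in Col3a1, 117 bases before its start (chr1:45311388-45311537, plus strand).
Col1a2: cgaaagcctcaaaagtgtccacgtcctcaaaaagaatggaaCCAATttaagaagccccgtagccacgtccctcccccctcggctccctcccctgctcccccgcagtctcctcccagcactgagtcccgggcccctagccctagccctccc
Col3a1: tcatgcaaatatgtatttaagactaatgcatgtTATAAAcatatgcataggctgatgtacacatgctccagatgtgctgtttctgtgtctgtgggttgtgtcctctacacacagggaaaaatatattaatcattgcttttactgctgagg
Over the 250 bases before each start, on either strand, CCAAT was found in 13 of the 35 genes and in 33.8% of all 32851 windows, and TATAAA in 5 of the 35 and in 12.4% of windows. These matches describe letters and not bound sites.

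The beaded filament collagens held 23.7% of fibroblast collagen UMIs in WT and 22.1% in A20ZF7. Collagen VI is built from 1 chain of each of the genes Col6a1, Col6a2 and one of Col6a3 to Col6a6. Col6a2 was the highest, at 1521 CPM in WT and 1143 in A20ZF7, followed by Col6a1 (905 and 668) and Col6a3 (840 and 646). The genes for alternative chains were lower, with Col6a5 at 166 and 80.7 CPM and Col6a4 at 32.6 and 23.6 CPM. The ratio of Col6a3 to Col6a2 UMIs was 0.552 and 0.565 in fibroblasts of WT and A20ZF7.

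Among fibril-associated collagens, Col14a1 led with 645 CPM in WT and 548 in A20ZF7 fibroblasts. Col12a1 stood at 169 and 90.1 CPM and Col16a1 at 110 and 68.3 CPM. Col8a1, a short-chain network collagen of vessel walls, was at 62.0 and 61.4 CPM. Col8a1 was also at 44.1 CPM in A20ZF7 smooth muscle, where it did not pass 2-fold. Of 28 collagen genes with enough UMIs in WT, 19 were past 2-fold higher in fibroblasts than in smooth muscle, where 18.8% of all genes were. In A20ZF7 it was 17 of 27, beside 22.7%. The lower limit of these ratios passed 2 for 15 genes in WT and 13 in A20ZF7, counts not taken over all genes. This limit did not pass 2 for Col6a4 and Col22a1 in either library, Col8a1 and Col20a1 in WT, and Col12a1 and Col24a1 in A20ZF7. In A20ZF7, Col22a1 and Col24a1 had 3 or fewer smooth muscle UMIs, and Col6a4, Col15a1 and Col16a1 had 8, 10 and 8. At least these genes were under the minimum of 20 there and entered through fibroblasts alone. The same limit holds in WT, where fibroblasts had 6386528 UMIs against 1904698 of smooth muscle. Of the 19 WT genes, 0 had 3 or fewer smooth muscle UMIs. How many genes were under 20 was not counted in either library. Against endothelium, 22 of 25 were higher in WT fibroblasts (34.9% of all genes) and 22 of 26 in A20ZF7 (30.6%). These counts lean on the depth of the fibroblast class, which had 6386528 UMIs in WT against 346482 of endothelium, and 12004030 against 426715 in A20ZF7. None of the 22 genes reached 20 endothelial UMIs in either library, so all of them entered through fibroblasts alone. Of the 22, 19 in WT and 14 in A20ZF7 had 3 or fewer endothelial UMIs. The lower limit of the ratio passed 2 for 17 and 16 genes, and did not for Col4a5, Col4a6, Col20a1, Col22a1 and Col24a1 in either library nor for Col6a4 in A20ZF7. These counts of lower limits were not taken over all genes either.

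Smooth muscle had the reverse of the fibroblast profile in 3 genes. Col4a5, Col4a6 and Col19a1 were past 2-fold lower in fibroblasts than in smooth muscle in WT, where 8.17% of all genes were, and the same 3 in A20ZF7, where 5.42% were. Col4a5 was at 113 CPM in WT and 65.4 in A20ZF7 smooth muscle against 34.9 and 16.5 in fibroblasts, and Col4a6 at 65.6 and 34.0 against 13.9 and 5.0. These genes encode the α5 and α6 chains of collagen IV, which join in the basement membrane around smooth muscle. Their RefSeq starts lie 1343 bases apart on chromosome X and point away from each other, with Col4a6 at 141474076 on the minus strand and Col4a5 at 141475419 on the plus strand. Col19a1 (ENSMUSG00000026141), a fibril-associated collagen, had 149 UMIs and 78.2 CPM in WT smooth muscle and 48 UMIs and 60.4 CPM in A20ZF7. Fibroblasts had 3 and 4 Col19a1 UMIs, or 0.470 and 0.333 CPM, and endothelium had none, which allows up to 8.66 and 7.03 CPM. Col18a1, by contrast, was at 214 and 223 CPM in smooth muscle and 240 and 160 CPM in fibroblasts.

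The major collagen IV chains were the most evenly spread of the family. Col4a1 was at 640 and 551 CPM in fibroblasts, 456 and 379 in smooth muscle, and 574 and 612 in endothelium of WT and A20ZF7. Col4a2 was at 370 and 356, 301 and 293, and 398 and 448 CPM in the same classes. Neither gene passed 2-fold between any pair of these classes. Lymphocyte barcodes had 7.79 and 15.1 CPM of Col4a1. The UMI ratio of Col4a2 to Col4a1, whose chains join as 1 α2 with 2 α1, was 0.578 and 0.646 in fibroblasts, 0.659 and 0.774 in smooth muscle, and 0.693 and 0.732 in endothelium. The annotated starts of these 2 genes lie on opposite strands of chromosome 8, and each gene reads across the start of the other. Their first exons overlap by 22 bases (GRCm38.p6, chr8:11312805-11312826, given on the plus strand). Col4a2 starts at the first base of the stretch on the plus strand, and Col4a1 at its last base on the minus strand.
Col4a1/Col4a2 overlap: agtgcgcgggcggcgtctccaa
The stretch is shown because UMIs are counted from 5′ ends, where these genes meet.

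Endothelial collagen was mainly basement membrane and multiplexin RNA. Blood endothelial barcodes, 243 in WT and 356 in A20ZF7, had 65.3% and 67.2% of their collagen UMIs in collagen IV genes and 27.3% and 21.8% in multiplexins. Col15a1, a multiplexin of vessel basement membranes, was at 418 CPM in WT and 378 CPM in A20ZF7 blood endothelium. In fibroblasts it was at 415 and 191 CPM, and in smooth muscle at 25.2 and 12.6 CPM. Past 2-fold lower in fibroblasts than in endothelium were 0 of 25 collagen genes in WT, beside 8.41% of all genes, and 1 of 26 in A20ZF7, beside 6.56%.

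That gene was Col23a1 (ENSMUSG00000063564), which encodes a transmembrane collagen. It had 121.9 CPM in A20ZF7 endothelium and 24.9 CPM in fibroblasts, against 34.6 and 22.7 CPM in WT. Most of it came from the few lymphatic endothelial barcodes, defined by Prox1, Lyve1, Mmrn1 or Ccl21a. In these, Col23a1 had 9 UMIs in 16 WT barcodes, 485 CPM (222 to 920), and 39 UMIs in 72 A20ZF7 barcodes, 537 CPM (382 to 735). Blood endothelium had 3 and 13 UMIs, 9.15 and 36.7 CPM. Transmembrane collagens thereby made up 9 of the 18 collagen UMIs of WT lymphatic barcodes and 47.6% of the 82 of A20ZF7, so the WT share rests on very few molecules. Lymphatic Col4a1 was lower than in blood endothelium, at 165 against 703 CPM in A20ZF7. WT lymphatic barcodes had 1 Col4a1 UMI, against 198 in blood endothelium, a ratio of CPM of 0.089 (0.002 to 0.503).

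**Figure D2:**
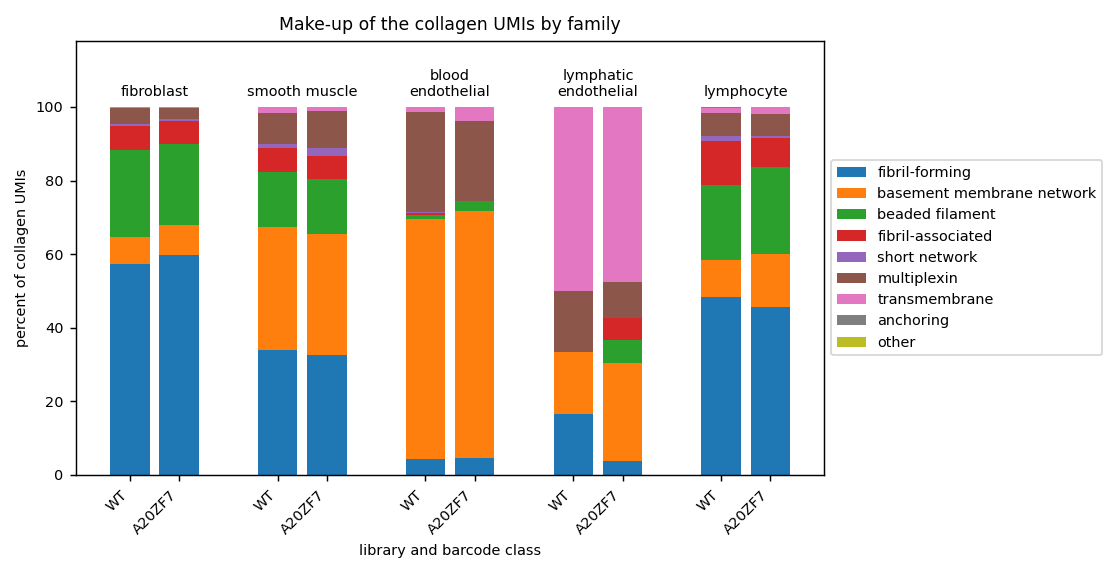
Stacked bars of the percentage of collagen UMIs in each structural family, for fibroblast, smooth muscle, blood endothelial, lymphatic endothelial and lymphocyte barcodes of each library. The fibril-forming share is 57.4% and 59.8% in fibroblasts and 34.1% and 32.6% in smooth muscle, the basement membrane share is 65.3% and 67.2% in blood endothelium, and lymphatic bars rest on 18 and 82 UMIs.

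Glial barcodes were few and their level loosely fixed, since 85.7% of those in A20ZF7 and 23.1% in WT had only 3 or 4 marker UMIs. Col16a1 had 6 UMIs in WT and 8 in A20ZF7 (414 and 866 CPM), Col12a1 9 and 4 (621 and 433 CPM) and Col18a1 7 and 5 (483 and 541 CPM). Col20a1, singled out after its values were seen, had 8 and 4 UMIs, 552 and 433 CPM, in glial barcodes against 6.58 and 3.5 CPM in fibroblasts. With intervals of 238 to 1088 and 117.95 to 1108 CPM, the glial level of Col20a1 lay above the fibroblast level in both libraries. Pericyte barcodes had 16 and 4 Col4a1 UMIs, 1752 CPM in WT (1002 to 2846) and 680 in A20ZF7 (185 to 1742).

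Fibroblasts were divided by marker genes of known intestinal subsets. Adamdec1 marks fibroblasts of the lamina propria (3510 WT and 7027 A20ZF7 barcodes). Pi16, Cd34, Grem1 and Mfap5 mark adventitial fibroblasts and trophocytes (639 and 1239). Bmp3, Bmp5, Bmp7 and F3 mark subepithelial fibroblasts (126 and 82). The remaining 709 and 2054 fibroblast barcodes fell in no subset. The summed collagen level was 15136, 14132 and 13138 CPM in the Adamdec1, Pi16/Cd34/Grem1 and Bmp/F3 subsets of WT, and 11603, 12406 and 11386 CPM in those of A20ZF7. No summed level passed 2-fold between subsets of a library, while single collagen genes did, as described next. The makeup of the subsets was not compared by a single measure.

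Col14a1 and Col8a1 were past 2-fold higher in the Pi16/Cd34/Grem1 subset than in the Adamdec1 subset in both libraries. Col14a1, which lies on fibrils of dense connective tissue, was 2.50 times higher there than in the Adamdec1 subset in WT (1280 against 512 CPM, interval of the ratio 2.33 to 2.68). In A20ZF7 the ratio was 2.55 (1064 against 418 CPM, 2.40 to 2.70). Col8a1 was 4.68 times higher in WT (173 against 36.9 CPM) and 7.51 times in A20ZF7 (197 against 26.2 CPM). With Col4a5, 3 of 25 collagen genes were past 2-fold higher in this subset in WT, beside 2.95% of all genes, and without it 2 of 25 in A20ZF7, beside 2.37%. The Adamdec1 subset held 4498602 UMIs in WT and 8334667 in A20ZF7, against 909416 and 1577421 in the Pi16/Cd34/Grem1 subset. A gene lower in the latter with fewer than 20 UMIs there entered the counts through the Adamdec1 subset alone. Col27a1 in WT, with 10 UMIs, was such a gene, and their full number was not counted. Past 2-fold lower were 9 of 25 (11.6% of all genes) and 10 of 25 (8.62%). Among these were Col6a5, at 17.6 against 221 CPM in WT and 9.51 against 106 in A20ZF7, Col12a1, at 31.9 against 161 and 23.5 against 101.4, Col18a1, at 70.4 against 294 and 67.8 against 196, and Col15a1, at 202 against 497 and 93.2 against 221.

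Col12a1, a fibril-associated collagen of loaded tissue, was instead among the collagens that were higher in the Bmp/F3 subset. It stood at 1039 CPM in WT and 643 in A20ZF7, 6.45 times (5.40 to 7.66) and 6.34 times (4.70 to 8.39) the Adamdec1 subset. Col3a1 ran the other way, at 1117 and 1360 CPM against 3694 and 2661 CPM. Col23a1 was at 148 and 321 CPM against 19.3 and 21.1, from 23 and 26 UMIs. Past 2-fold higher than in the Adamdec1 subset were 5 of 25 collagen genes in WT (Col4a5, Col4a6, Col12a1, Col23a1 and Col27a1), beside 2.99% of all genes, and 2 of 20 in A20ZF7 (Col12a1 and Col23a1), beside 0.988%. Past 2-fold lower were 6 of 25 and 6 of 20, beside 33.7% and 53.7% of all genes, whose median ratios were 0.692 and 0.439. The Bmp/F3 subset had 154890 and 80887 UMIs in all, against 4498602 and 8334667 in the Adamdec1 subset. The part of this depth in the percentages was not tested, so the lower collagen counts were not read against them. Col4a5 was at 329 and 161 CPM in the Bmp/F3 subset, above its 18.0 and 15.1 CPM in the Adamdec1 subset and 113 and 65.4 CPM in smooth muscle. Col6a3 was below its partner chain in each subset, and furthest in Bmp/F3, with a ratio of Col6a3 to Col6a2 UMIs of 0.333 and 0.270. The ratio was 0.537 and 0.546 in the Adamdec1 subset and 0.715 and 0.770 in the Pi16/Cd34/Grem1 subset. Col24a1, singled out after its values were seen, had 123 and 111 CPM in the Bmp/F3 subset from 19 and 9 UMIs, against 15.3 and 16.1 CPM in the Adamdec1 subset.

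**Figure D3:**
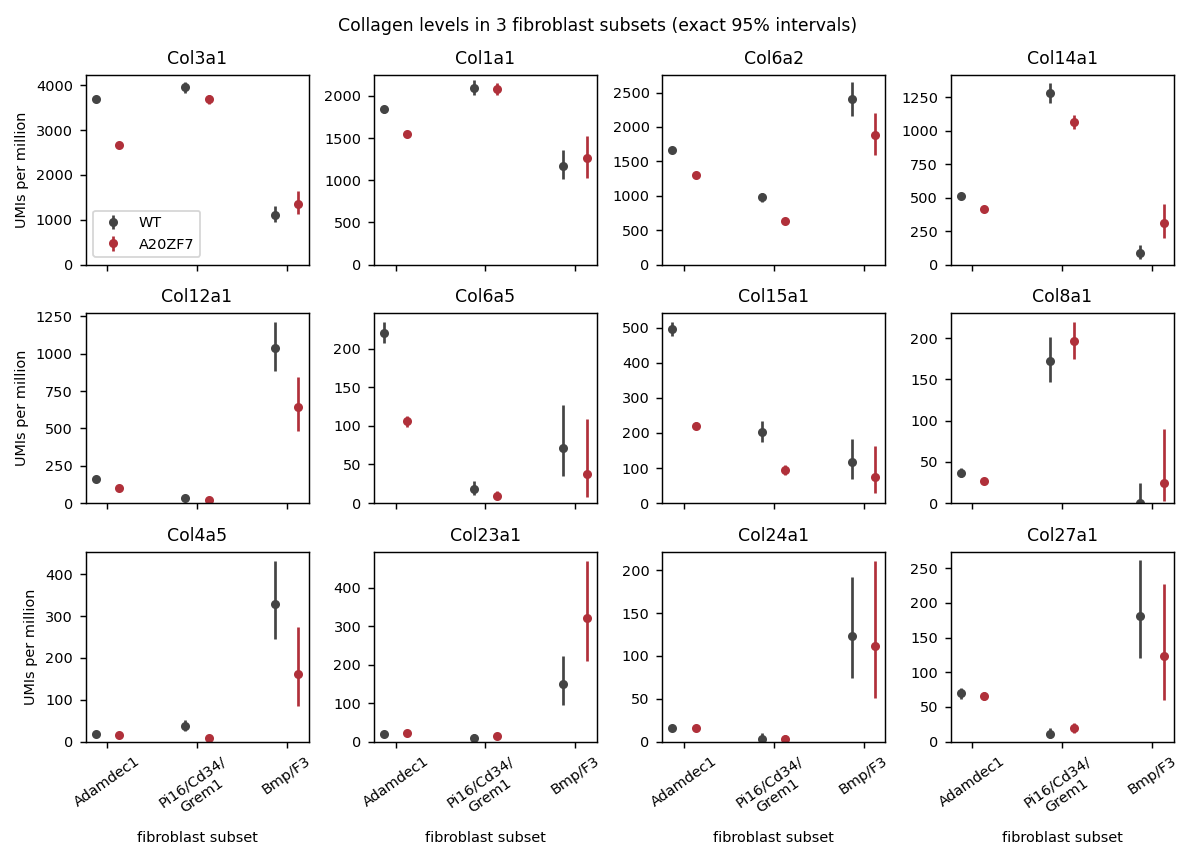
Levels (CPM, linear axis from 0 with its own scale per gene, points with 95% Poisson intervals) of 12 collagen genes in the Adamdec1, Pi16/Cd34/Grem1 and Bmp/F3 fibroblast subsets of each library. Col14a1 and Col8a1 peak in the Pi16/Cd34/Grem1 subset (Col14a1 at 1280 and 1064 CPM), and Col12a1 peaks in the Bmp/F3 subset (1039 and 643 CPM).

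Across genotypes, fibroblast collagen was lower in the A20ZF7 library, by an amount that differed between genes. The summed level ratio, A20ZF7 over WT, was 0.791 (0.785 to 0.798). In the same barcodes the 8 fibroblast gate markers, none of them a collagen, were also lower, at 18452 CPM in WT and 14264 in A20ZF7. Of the 27 collagen genes with enough UMIs, 26 had a ratio below 1, and 21 an interval wholly below 1. None had an interval wholly above 1. Such counts were not taken over all genes, so they have no background here. Their median ratio was 0.751, beside 0.970 over all 13273 genes tested. Past 2-fold, 0 of 27 were higher, beside 7.70% of all genes, and 4 of 27 were lower, beside 3.87%.

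The 4 were Col15a1, Col6a5, Col4a5 and Col4a6. Col15a1 (ENSMUSG00000028339) went from 415 CPM in WT to 191 in A20ZF7, a ratio of 0.461 (0.435 to 0.487), on 2652 and 2296 UMIs. Fibroblast barcodes with a Col15a1 UMI made up 37.8% in WT and 18.5% in A20ZF7, and 19.5% and 9.81% after thinning to 500 UMIs, beside 0.453% and 0.601% of lymphocyte barcodes before thinning. Col6a5 had a ratio of 0.485 (0.444 to 0.530). The ratios of Col4a5 and Col4a6 were 0.472 (0.388 to 0.575) and 0.359 (0.254 to 0.503), at levels of 34.9 CPM or less. Neither stayed past 2-fold with the stricter gate, where Col4a5 was at 0.579 and Col4a6 at 0.964, or with the gate without Dcn and Lum, where they were at 0.770 and 0.502. With the subset shares of WT given to both libraries, 3 genes were lower and Col4a5, at 0.534, was not among them. The summed level of the 6 smooth muscle markers in fibroblast barcodes was 482 CPM in WT and 267 in A20ZF7, and its part in these ratios was not tested. The major fibril chains moved less, with Col1a1 at 0.886 (0.866 to 0.906), Col1a2 at 0.855 and Col3a1 at 0.779 (0.766 to 0.792). Col8a1 had a ratio of 0.9902 (0.875 to 1.12) and Col23a1 one of 1.10 (0.897 to 1.35), so neither differed beyond counting error.

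By family, the ratio was 0.824 for fibril-forming collagens, 0.875 for the basement membrane network, 0.739 for beaded filaments and 0.763 for fibril-associated collagens. Multiplexins had the lowest ratio, 0.536 (0.514 to 0.560). Short network collagens, nearly all Col8a1, had 0.987 (0.873 to 1.12) and transmembrane collagens 1.03 (0.867 to 1.24).

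Lymphocyte markers in fibroblast barcodes also differed between the libraries, and their part in the genotype ratios was not tested. The summed level of 10 T or innate lymphocyte markers in fibroblast barcodes was 601 CPM in WT and 1344 in A20ZF7, with UMIs of 10 of 10 markers in both, while the 8 fibroblast markers stood at 18452 and 14264 CPM. Fibroblast barcodes with no immune marker UMI numbered 3268 in WT and 3936 in A20ZF7, or 65.6% and 37.8% of all fibroblast barcodes. Their median depth was 1040 and 767.5 UMIs, against 1119 and 994 over all fibroblast barcodes, and its part in the ratios was not tested. Their summed collagen level was 16554 and 14873 CPM, a ratio of 0.898 (0.888 to 0.909). There Col1a1 was level, at 2035 and 2049 CPM (ratio 1.01, 0.974 to 1.04), and so was Col4a1 at 725 and 724 CPM. Col8a1 (1.29, 1.07 to 1.55) and Col4a2 (1.09, 1.01 to 1.17) had intervals wholly above 1. Col15a1 was still lower, at 472 and 243 CPM (ratio 0.514, 0.472 to 0.559). Col6a5 had a ratio of 0.575 (0.507 to 0.652) and Col12a1 of 0.684 (0.608 to 0.770) in these barcodes. Past 2-fold higher were then 0 of 27, beside 5.57% of 11459 genes tested, and lower were 2 of 27, beside 3.11%. The 2 were Col4a6 (0.469, 0.287 to 0.745) and Col20a1 (0.460, 0.214 to 0.929), the latter from 29 and 12 UMIs.

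**Figure D4:**
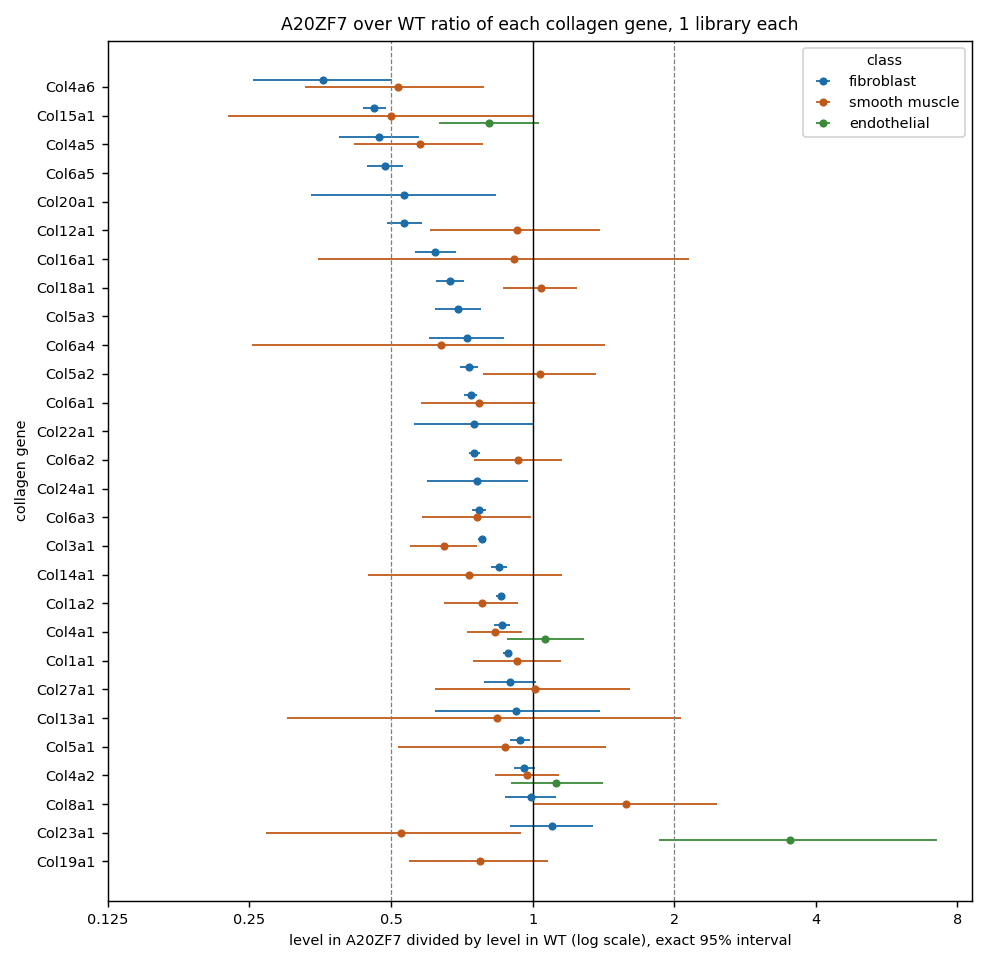
Ratio of A20ZF7 to WT level (log axis) of each collagen gene with at least 20 UMIs in the higher library, in fibroblast, smooth muscle and endothelial barcodes, with 95% intervals of counting error and dashed lines at 0.5 and 2. In fibroblasts 26 of 27 points lie below 1, a count not taken over all genes, whose median ratio was 0.970. Col15a1 is at 0.461 there, and in endothelium Col23a1 stands at 3.52 from 12 WT and 52 A20ZF7 UMIs.

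The WT library gave the spread between mice of one genotype, since hashtags assigned 776 and 912 of its fibroblast barcodes to 1 mouse each. The summed collagen level was 12990 CPM (12784 to 13199) in the first and 12674 CPM (12490 to 12861) in the second. Of 22 collagen genes, 0 were past 2-fold higher in the second mouse, beside 1.13% of all genes, and 0 were lower, beside 0.525%. Col15a1 was at 352 and 353 CPM in these mice. Intervals of the ratio, second over first, lay wholly above 1 for Col8a1 (1.61, 1.12 to 2.33) and Col12a1 (1.37, 1.09 to 1.71), and wholly below 1 for Col1a1 (0.915, 0.860 to 0.973), Col1a2 (0.927, 0.872 to 0.986) and Col6a2 (0.932, 0.871 to 0.998). Between these mice of 1 genotype, the intervals of 5 of the 22 genes thus excluded 1. The same count was not taken over all genes, and the intervals were not adjusted for their number. The 3296 WT fibroblast barcodes without a hashtag call stood apart, at 15848 CPM of collagen and 458 CPM of Col15a1, with 314 CPM of lymphocyte markers against 977 and 1064 CPM in the hashtagged barcodes. The hashtagged barcodes thus had more lymphocyte marker RNA and less collagen than the uncalled ones, within 1 genotype and 1 library. Whether these levels are linked was not tested. The Col15a1 level of each WT group was above the 191 CPM of A20ZF7. Summed collagen of each WT group was also above the 11575 CPM of A20ZF7. The hashtagged groups, at 12990 and 12674 CPM, lay nearer to it than the uncalled barcodes at 15848 CPM. The summed ratio of 0.791 used all WT groups together.

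Within fibroblast subsets the genotype ratios were similar for Col15a1 and differed for others. In the Adamdec1 subset, 0 of 27 collagen genes were past 2-fold higher in A20ZF7 (7.61% of all genes) and 3 were lower (3.69%), with a median ratio of 0.746 beside 0.974 over all genes. The 3 were Col15a1 at 0.445 (0.418 to 0.473), Col6a5 at 0.480 (0.438 to 0.526) and Col20a1 at 0.397 (0.227 to 0.685). In the Pi16/Cd34/Grem1 subset, 0 of 20 were higher (7.18%) and 2 were lower (2.79%), with a median of 0.871 beside 1.04. These were Col15a1, again at 0.461 (0.368 to 0.575), and Col4a5 at 0.210 (0.099 to 0.417) from 33 and 12 UMIs. Col1a1 had a ratio of 0.839 in the Adamdec1 subset (0.816 to 0.862) and 0.993 in the Pi16/Cd34/Grem1 subset (0.939 to 1.05). Col4a5 in the Adamdec1 subset had a ratio of 0.840 (0.630 to 1.12).

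**Figure D5:**
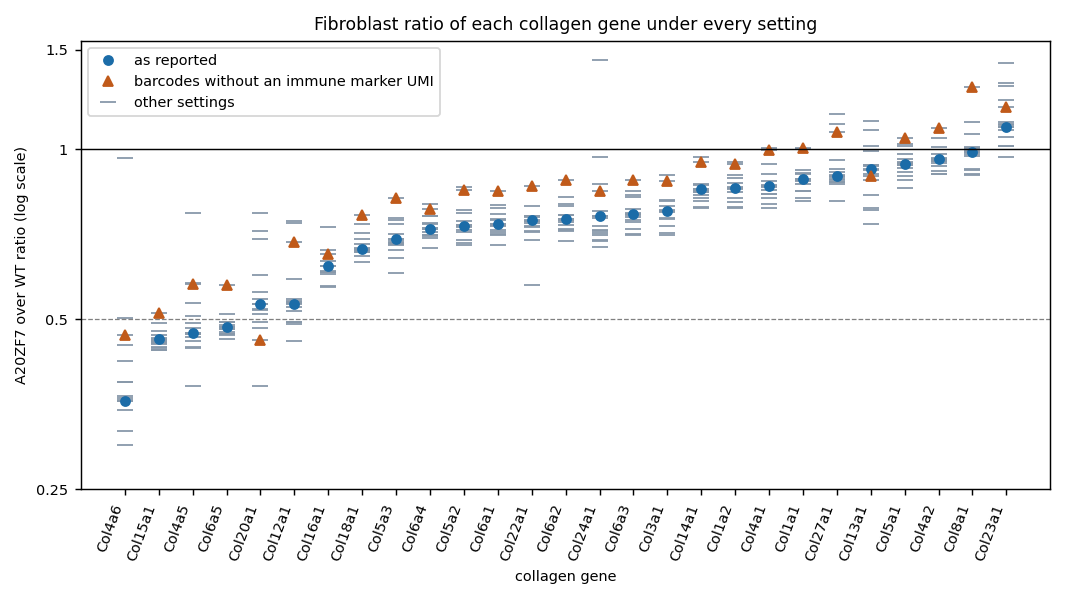
Ratio of A20ZF7 to WT fibroblast level of each collagen gene (log axis) under each way of filtering, gating or scaling, with a circle for the reported value and a triangle for barcodes without an immune marker UMI. Col15a1 ranges from 0.442 to 0.514 across the settings, and Col1a1 reaches 1.01 in barcodes without an immune marker UMI.

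In smooth muscle the summed ratio was 0.833 (0.790 to 0.879). Of 23 collagen genes, 0 were past 2-fold higher in A20ZF7, beside 5.26% of all genes, and 1 was lower, beside 5.92%. That 1 was Col15a1, at 25.2 and 12.6 CPM from 48 and 10 UMIs (ratio 0.499, 0.225 to 0.9997). The median ratio was 0.830, beside 0.926 over all genes. Col3a1 stood at 369 and 239 CPM (0.648, 0.549 to 0.762), Col4a6 at a ratio of 0.518 and Col4a5 at 0.577. Col8a1 had a ratio of 1.58 (1.003 to 2.47) from 53 and 35 UMIs. Lymphocyte markers in smooth muscle barcodes were at 599.6 CPM in WT and 1410 in A20ZF7, and fibroblast markers at 775 and 558 CPM. Their part in these ratios, Col15a1 and Col3a1 among them, was not tested.

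In endothelium 4 collagen genes had enough UMIs, and the summed ratio was 1.11 (0.989 to 1.24). Past 2-fold higher was 1 of 4, Col23a1, beside 10.3% of all genes, and 0 were lower, beside 4.35%. The Col23a1 ratio was 3.52 (1.85 to 7.24) from 12 and 52 UMIs. Lymphatic barcodes, the main carriers of this gene, were 16 of 259 endothelial barcodes in WT and 72 of 428 in A20ZF7. Col4a1 had a ratio of 1.07, Col4a2 of 1.12 and Col15a1 of 0.806 (0.631 to 1.03), so the 3 vessel collagens did not differ beyond counting error.

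Genes that process, crosslink, degrade, bind or accompany collagen were described in the same fibroblast barcodes, as the A20ZF7 to WT ratio. The background for each list was that of all genes, of which 7.70% were past 2-fold higher and 3.87% lower. Of 17 genes that fold and modify procollagen, 16 were tested, 0 were higher and 1, the prolyl hydroxylase P3h2, was lower (20.8 and 9.16 CPM), with a median of 0.807. Serpinh1, the collagen chaperone, was at 878 and 564 CPM (ratio 0.643), Ppib at 501 and 459, P4hb at 297 and 273 and Crtap at 133 and 111 CPM. Of 12 maturation and crosslinking genes, 0 passed 2-fold in either direction and the median was 0.884, with Pcolce at 313 and 251 CPM, Loxl2 at 292 and 242, Loxl1 at 206 and 187 and Adamts2 at 151 and 122. Of 12 degradation genes, 10 were tested and 2 were higher, the metalloproteinase inhibitor Timp1 (18.0 and 43.4 CPM) and the gelatinase Mmp9 (0.783 and 4.67 CPM), with a median of 0.794. Mmp9 was also at 6.44 and 6.91 CPM in lymphocyte barcodes, where Timp1 was at 0.268 and 0.329 CPM. Timp2 was at 536 and 404 CPM, Mmp10 at 464 and 320, Mmp2 at 429 and 311, and Mmp14 at 342 and 384 CPM. None of these 4 passed 2-fold.

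Of 8 receptors, 7 were tested and 1 was higher, the leukocyte receptor Lair1 (2.51 and 6.83 CPM, and 11.01 and 10.9 CPM in lymphocyte barcodes), with a median of 0.792. Itgb1 was at 463 and 404 CPM, Ddr2 at 224 and 175 and Itga1 at 109 and 86.6. Of 15 basement membrane partners, 12 were tested and 1 was higher, Lamb3 (2.04 and 6.91 CPM, and 9.13 and 15.9 CPM in lymphocyte barcodes), with a median of 0.801. The laminin chains Lama2, Lamc1 and Lamb1 were at 874 and 650, 396 and 365, and 355 and 275 CPM, and Nid1 at 301 and 229. Of 11 fibril partners, 10 were tested, none passed 2-fold and the median was 0.777. Dcn was at 8728 and 6907 CPM, Sparc at 2642 and 2268, Dpt at 1673 and 1197 and Fn1 at 1537 and 992, of which Dcn and Dpt are fibroblast gate genes. The medians of these 6 lists, 0.777 to 0.884, lay above the collagen median of 0.751 and below the 0.970 over all genes. P3h2, Timp1, Mmp9, Lair1 and Lamb3 are named as the genes past 2-fold, after their values were seen. Beside the 7.70% higher and 3.87% lower over all genes, the counts of these short lists were not read as results about the lists.

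The other 20 collagen genes had, in every class, fewer than 20 UMIs or less than 20 CPM, and over all kept barcodes they had from 0 to 179 UMIs in WT and from 1 to 321 in A20ZF7. In fibroblasts 4 genes of the family had no UMI in each library. The highest fibroblast level among these 20 was 17.7 CPM, of Col24a1 in WT, beside 23.3 CPM of the same gene in empty WT barcodes.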

How the data were processed

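The data were single-cell RNA-Seq (10X 5′ kit v1.1) of lamina propria cells, 1 library each of WT and A20ZF7. The authors aligned reads to mm10 with Cell Ranger and deposited raw UMI counts of each gene in each barcode, 2 mice pooled per library and all barcodes retained. The submitters' processing notes name Cell Ranger 7.1, R 4.3.3 and Seurat 4.3, while the file headers name Cell Ranger 8.0.0 for gene expression and 7.1.0 for antibodies. WT listed 33696 genes and A20ZF7 32285, and the 31950 shared IDs were used, with 35171651 and 52727058 UMIs in all. Lists of different length may come from different reference annotations, which cannot be told apart from genotype in any ratio between the libraries. The deposited antibody counts of WT gave hashtags for the WT mice. The antibody file given for A20ZF7 was identical to that of WT and was not used. No columns of authors' comparisons were present, and 0 columns belonged to other series.

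Barcodes were kept with 200 to 2500 genes, at most 15% mitochondrial UMIs and at least 675 (WT) or 396 (A20ZF7) UMIs, which is 0.1 of the 0.99 quantile of the expected number of top barcodes. Doublets of the WT hashtags (2547, HTODemux in Seurat 5.3.0, R 4.3.3) were removed, and the A20ZF7 library had no such step. Scrublet (scanpy 1.11.5) scores above 0.25 were an alternative (226 WT, 554 A20ZF7 barcodes). Classes were gated on marker UMIs without any collagen gene. A barcode fell in a fibroblast subset with at least 2 UMIs of its genes and more than of the others. UMIs were summed per library and class in Python 3.11.15 with numpy 2.4.6, scipy 1.17.1 and pandas 2.3.3. Intervals are 95% exact Poisson for levels, exact conditional for ratios and exact binomial for shares. A level of 0 UMIs was given with a floor of 3 UMIs, and a ratio against 0 UMIs counted as past 2-fold. The ratio script was checked on simulated data.

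Members and lists were chosen with earlier results of these data known. Collagen genes were named where a class of either library had at least 20 UMIs and 20 CPM (24 of 44). Of each related list, genes of at least 100 CPM in fibroblasts were named, at most the 4 highest. Promoter windows came from RefSeq tables (GRCm38.p6). Alternatives were other UMI and gene limits, stricter, looser and likelihood-based gates, other totals and a subtracted lymphocyte level. Barcodes were also thinned to 500 UMIs, and the barcodes called for each WT hashtag were left out in turn.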

Additional observations from a re-analysis of the deposited data

Results flagged for a closer look

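The Col23a1 ratio of A20ZF7 to WT pointed opposite ways in 2 classes. In smooth muscle it was 0.524 (0.272 to 0.945, 64 WT and 14 A20ZF7 UMIs), and in endothelium 3.52 (1.85 to 7.24, 12 and 52 UMIs). It was picked out because the direction differed between classes, and with 1 library per genotype the difference was not tested. Within endothelium, lymphatic barcodes were 16 of 259 in WT and 72 of 428 in A20ZF7, and Col23a1 was at 485 and 537 CPM in lymphatic and 9.15 and 36.7 CPM in blood endothelial barcodes.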

How the results depend on the processing

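The settings without immune marker UMIs, with the gate without Dcn and Lum and with WT subset shares were chosen after seeing the data. Of 405 recomputed fibroblast ratios of single genes (27 genes, 15 settings), 382 stayed on the same side of 1 and 23, in 9 genes, crossed it. Col15a1 ranged from 0.442 to 0.514. The count of genes past 2-fold lower in A20ZF7 fibroblasts, 4 as reported, was 1 of 26 with the stricter gate (Col15a1, beside 2.80% of all genes), 2 of 27 without immune marker UMIs (Col4a6, Col20a1, beside 3.11%) and 2 of 27 with the gate without Dcn and Lum (Col6a5, Col15a1, beside 2.91%), and at most 6. The count higher, 0 as reported, was 2 with a minimum of 10 UMIs (Col9a3 and Col11a2) of 32, beside 8.75%. The causes were not tested.

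The summed fibroblast ratio, 0.791 as reported, was 0.898 without immune marker UMIs, 0.833 without Dcn and Lum in the gate, 0.825 after thinning, 0.735 by likelihood, 0.752 with the looser and 0.898 with the stricter gate, 0.729 with at least 1000 UMIs and 0.807 with a total without mitochondrial, ribosomal and immunoglobulin genes. Leaving out the WT barcodes called for 1 hashtag or the other gave 0.763 to 0.772. Neither setting left out a whole mouse, because the 3296 WT fibroblast barcodes without a call stayed in. In smooth muscle, 0.833 as reported, these were 0.886 without Dcn and Lum, 0.908 thinned, 0.881 looser, 0.769 with at least 1000 UMIs and 0.977 stricter. In endothelium, 1.11 as reported, the ratio crossed 1 to 0.958 with 200 genes as the only lower limit and to 0.928 thinned. It was 1.29 with the stricter gate and 0.977 to 1.15 without the barcodes called for 1 WT hashtag or the other.

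The summed fibroblast levels of WT and A20ZF7 in CPM were 16554 and 14873 without immune marker UMIs, 15645 and 13032 without Dcn and Lum, 14810 and 11715 with Scrublet, 15181 and 12520 thinned, 13895 and 10217 by likelihood, 13884 and 10439 looser, 16048 and 14412 stricter, 14483 and 11386 with the lymphocyte level subtracted, 14178 and 10332 with at least 1000 UMIs, and 18583 and 14996 with the shorter total. Leaving out the barcodes called for 1 WT hashtag or the other gave 14988 to 15180 CPM in WT. Fibroblasts were 38.1% and 29.9% of barcodes with the looser gate and 18.0% and 8.64% with the stricter one. Empty barcodes of 51 to 100 UMIs held 1548 and 1062 CPM. No paired analysis was possible because each genotype is 1 library. Depth limits glial, pericyte and lymphatic values most.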

Other observations

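The 48 barcodes gated as mast cells in A20ZF7 carried 1486 CPM of collagen (1182 to 1844) from 82 UMIs and 1305 CPM of fibroblast markers, while the 8 of WT carried none, which allows up to 202 CPM.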
